A study of Homo sapiens with 2 samples.

Results

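The 10 genes described here encode ligands of the transforming growth factor beta (TGF-beta) superfamily and proteins that hold them in check. They were taken by symbol from the count tables as a named list, TGFB1, TGFB2, INHBA, INHBB, BMP2, BMP4, GREM1, FST, SMAD6 and SMAD7, and all 10 of 10 were found among 22595 gene symbols. Of these, 9 had at least 20 counts over both libraries and are called measured, and FST was not. The data were 2 RNA-seq libraries of 786-O, an established cell line from a human clear cell kidney carcinoma without working VHL. The cells were grown in medium with 25 mM glucose or with 0 mM glucose as a comparison of fed and glucose-starved cells. Each group was 1 library of the same line, described as human kidney cancer cells, and the labels do not say how long glucose was withheld. The libraries also carried the short descriptions LucF (with glucose) and LucG (without), which the sources do not explain. A further difference between the cultures that these might mark cannot be told apart from glucose.

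Ligands of this superfamily are secreted as dimers and bind pairs of type I and type II receptor kinases. TGF-beta and activin receptors phosphorylate SMAD2 and SMAD3, and bone morphogenetic protein (BMP) receptors phosphorylate SMAD1, SMAD5 and SMAD9, which enter the nucleus with SMAD4. Extracellular antagonists such as gremlin, noggin and follistatin trap ligands, and the inhibitory SMADs, SMAD6 and SMAD7, block the receptors and are themselves induced by the pathway. In the kidney, TGF-beta is known for its part in fibrosis and BMP signalling for nephron development.

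Total counts were 27317598 with glucose and 31345853 without. Levels are given as CPM, counts per 1000000 of the library size after TMM scaling, and ratios as the library without glucose over the library with glucose. A gene was called higher or lower only when the exact 95% counting interval of its ratio lay wholly above 2-fold or wholly below 0.5-fold. With no replicates there was no test, and higher and lower describe these libraries, not the conditions. Intervals and limits reflect counting error alone, because each group was 1 library. They can be too narrow even for that error, because PCR copies of a molecule are not independent. In bulk RNA, fewer cells that express a gene and less RNA per cell cannot be told apart.

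Sequence from the region before the start site is shown for 2 pairs of related genes whose members had unlike ratios, the inhibitory SMAD genes and the activin subunit genes. The 250 bases before each RefSeq start site (GRCh38.p14) are printed 5′ to 3′ along the gene, for SMAD7 at the most upstream of its 3 listed starts, and capitals mark the motif matches described next.
SMAD6, chr15:66701986-66702235 (plus strand): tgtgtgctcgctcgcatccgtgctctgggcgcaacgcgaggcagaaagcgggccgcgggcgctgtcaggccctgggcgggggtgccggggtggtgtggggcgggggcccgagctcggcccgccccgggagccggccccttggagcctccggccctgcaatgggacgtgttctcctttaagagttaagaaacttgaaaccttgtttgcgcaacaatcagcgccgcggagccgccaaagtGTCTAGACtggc
SMAD7, chr18:48950966-48951215 (minus strand): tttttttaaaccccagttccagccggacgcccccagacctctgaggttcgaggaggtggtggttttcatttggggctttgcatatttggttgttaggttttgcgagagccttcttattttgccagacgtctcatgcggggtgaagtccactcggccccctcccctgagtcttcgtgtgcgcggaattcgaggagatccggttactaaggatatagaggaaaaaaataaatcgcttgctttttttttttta
INHBA, chr7:41703091-41703340 (minus strand): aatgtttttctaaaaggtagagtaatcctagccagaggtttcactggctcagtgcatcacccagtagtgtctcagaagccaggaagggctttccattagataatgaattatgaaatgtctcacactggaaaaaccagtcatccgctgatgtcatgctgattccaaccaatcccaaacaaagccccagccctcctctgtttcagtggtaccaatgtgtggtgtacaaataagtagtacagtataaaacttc
INHBB, chr2:120345886-120346135 (plus strand): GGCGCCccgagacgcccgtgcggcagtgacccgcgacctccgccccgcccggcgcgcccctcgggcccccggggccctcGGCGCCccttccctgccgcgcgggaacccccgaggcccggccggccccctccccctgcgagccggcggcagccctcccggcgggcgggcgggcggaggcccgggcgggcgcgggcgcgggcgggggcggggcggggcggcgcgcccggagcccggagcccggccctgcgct

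The SMAD6 window held GTCTAGAC, a palindrome that Smad proteins bind, beginning 12 bases before the start site. Of 35116 such windows of all genes, 64 (0.182%) held these letters. The INHBB window held GGCGCC, a GC-rich Smad element, at positions 1 and 80, a motif found in 16.4% of all windows. It was 89.6% G or C with 46 CpG dinucleotides, against 42.8% and 1 CpG for INHBA and a median of 58.0% G or C over all windows. The windows of SMAD6 and SMAD7 were 68.0% and 48.0% G or C.

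Both strands were searched in the 14 windows of 9 members (TGFB1, TGFB2, INHBA, INHBB, BMP4, GREM1, FST, SMAD6 and SMAD7). BMP2 had no window in the promoter set used and was not searched. CAGACA, a Smad-binding element held by 13.6% of all windows, was found at TGFB2, BMP4 and GREM1, and GGCGCC also at BMP4 and GREM1. The E-box CACGTG, held by 6.34% of all windows, was found at TGFB2, where it overlapped CAGACA, and at BMP4. TGACGTCA, the cAMP response element (1.65% of all windows), and TGATGNAAT, a C/EBP-ATF element (0.888%), were found in none of the 14. A match is a run of letters, and no binding was measured.

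Per gene length, INHBA stood above the other members in both libraries. With glucose, the level of INHBA was 113 CPM per kilobase of gene model and that of TGFB2 was 41.8. SMAD7 followed at 16.3 and TGFB1 at 10.9, then BMP2 at 5.17 and INHBB at 4.44, whose 95% Poisson intervals overlapped. SMAD6 stood at 1.29, BMP4 at 0.695, GREM1 at 0.0608 and FST at 0.0264 CPM per kilobase, and the intervals of the last pair overlapped. The range thus ran from INHBA at percentile 95.2 of all measured genes per length to GREM1 at percentile 1.08.

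Without glucose, INHBA (110 CPM per kilobase), TGFB2 (51.0) and SMAD7 (16.4) kept the leading places. BMP2, at 14.2 CPM per kilobase, stood above TGFB1 at 9.49, the reverse of their order with glucose, and INHBB followed at 7.74. BMP4 (0.566), SMAD6 (0.382) and GREM1 (0.267) came last among those with a count, and each interval overlapped its neighbour's. BMP2 moved from percentile 38.3 to percentile 63.9 of measured genes, and SMAD6 from 18.5 to 9.47.

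**Figure D1:**
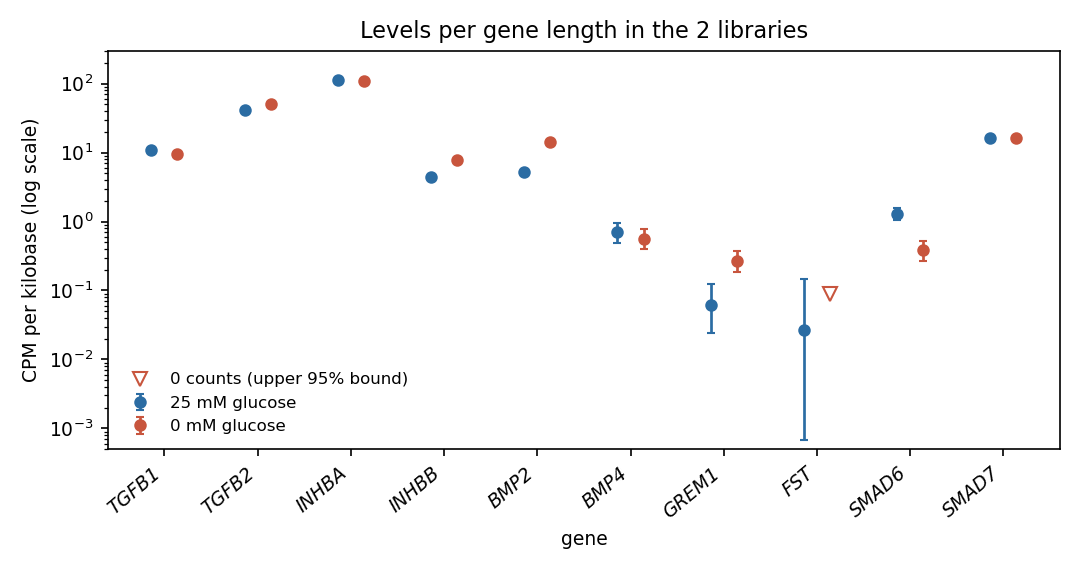
Level of each of the 10 genes in CPM per kilobase of gene model (log scale) in the library with 25 mM glucose and the library with 0 mM glucose, with exact 95% Poisson intervals (counting error only). Of the 10, INHBA has the highest level per kilobase in both libraries, at 113 and 110 CPM per kilobase. The open triangle is the upper bound for FST, which had 0 counts without glucose.

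TGFB1, on chromosome 19 from 41836813 to 41859831 (hg19, minus strand), encodes TGF-beta 1, the founding ligand of the family. It had 668 counts with glucose (24.0 CPM) and 640 without (20.8 CPM), and all 7 exons of its model had more than 10 reads in each library. The log2 ratio was -0.20 (95% counting interval -0.36 to -0.05). The library without glucose was thus slightly the lower, and the whole interval lay inside 2-fold.

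TGFB2, on chromosome 1 from 218518677 to 218617961 (plus strand), encodes TGF-beta 2, which needs the coreceptor TGFBR3 for efficient receptor binding. It had 6914 counts (248 CPM) with glucose and 9331 (303 CPM) without. The log2 ratio was 0.29 (interval 0.25 to 0.34), opposite in sign to that of TGFB1. Both ratios were well inside 2-fold, and neither gene passed the rule.

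INHBA, on chromosome 7 from 41728602 to 41742706 (minus strand), encodes the beta A subunit that forms activin A. It had 6828 counts (245 CPM) with glucose and 7352 (239 CPM) without. The log2 ratio was -0.04 (interval -0.08 to 0.01), and over the scalings tried it ran from -0.09 to 0.002, so that no direction could be given. The libraries thus held nearly the same level of the member that stood highest per kilobase. The antisense transcript LOC285954 (INHBA-AS1 in RefSeq) shares 9192 bases of the locus and had 18 and 16 counts. Use of strand in the counting is not stated, so reads of the pair cannot be told apart where they overlap, and no other member overlapped another gene model.

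INHBB, on chromosome 2 from 121103720 to 121109383 (plus strand), encodes the beta B subunit of activin B. It had 396 counts (14.2 CPM) with glucose and 762 (24.8 CPM) without, a ratio of 1.74 (interval 1.54 to 1.97). The library without glucose was the higher, but the interval ended just under 2-fold, so INHBB did not pass the rule. Of its 2 exons, 1 had more than 10 reads with glucose and both had without.

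BMP2 was the only ligand among the 6 that passed the rule, and it was higher without glucose. Bone morphogenetic protein 2, encoded on chromosome 20 from 6748746 to 6760910 (plus strand), drives bone and cartilage formation and signals through SMAD1, SMAD5 and SMAD9. It had 453 counts (16.3 CPM) with glucose and 1374 (44.7 CPM) without. That is 2.75-fold (interval 2.47 to 3.06), a log2 ratio of 1.46, and 8.75% of all measured genes had a ratio at least as far from 0. All 3 exons had more than 10 reads in each library.

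BMP4, the close relative of BMP2, on chromosome 14 from 54416456 to 54423554 (minus strand), was scarce in both libraries. It had 40 counts (1.44 CPM) with glucose and 36 (1.17 CPM) without, and 1 of its 6 exons had more than 10 reads in each. The log2 ratio was -0.29 (interval -0.99 to 0.39), so that no direction could be given at this depth. The interval ran from nearly 2-fold lower to 1.31-fold higher without glucose.

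The antagonists were the least abundant members. GREM1 encodes gremlin 1, which binds BMP2 and BMP4 and keeps them from their receptors, and lies on chromosome 15 from 33010206 to 33026870 (plus strand). It had 7 counts (0.251 CPM) with glucose and 34 (1.11 CPM) without, with 0 and 2 of its 5 exons above 10 reads. The ratio was 4.40 with a wide interval, 1.92 to 11.8, whose lower end fell just short of 2-fold. The GREM1 ratio was numerically the highest among the measured members, but its interval on the log2 scale (0.94 to 3.56) held that of BMP2 (1.304 to 1.615), and GREM1 did not pass the rule. With the median of genes of like length subtracted it did pass, with a log2 ratio of 2.21 (interval 1.01 to 3.63). Adding 1 CPM to each level brought it to 0.75, below BMP2 at 1.40 and INHBB at 0.76.

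FST encodes follistatin, which neutralises activins, and lies on chromosome 5 from 52776596 to 52781904 (plus strand). It had 1 count with glucose and 0 counts without, under the limit of 3 counts that a count of 0 allows (0.108 and 0.0976 CPM), so no ratio is given. The cells thus held abundant transcripts of INHBA beside almost none of this antagonist in either library.

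The inhibitory SMADs differed from each other. SMAD6, which mainly restrains BMP receptors, lies on chromosome 15 from 66994675 to 67074337 (plus strand), and its transcripts were lower without glucose. It had 113 counts (4.06 CPM) with glucose and 37 (1.20 CPM) without, 3.37-fold lower (interval 2.31 to 5.03), a log2 ratio of -1.75. Adding 1 CPM to each level brought the log2 ratio to -1.199. Of its 6 exons, 2 had more than 10 reads with glucose and 1 without, and 5.53% of all measured genes had a ratio at least as far from 0.

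SMAD7, which restrains both TGF-beta and BMP receptors, lies on chromosome 18 from 46446224 to 46477081 (minus strand). It had 1561 counts (56.0 CPM) with glucose and 1736 (56.5 CPM) without, and 6 of its 7 exons had more than 10 reads in each library. The log2 ratio was 0.01 (interval -0.09 to 0.11) and took either sign over the scalings tried, from -0.05 to 0.05. Its levels were thus close in these libraries, while that of SMAD6 was lower without glucose.

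**Figure D2:**
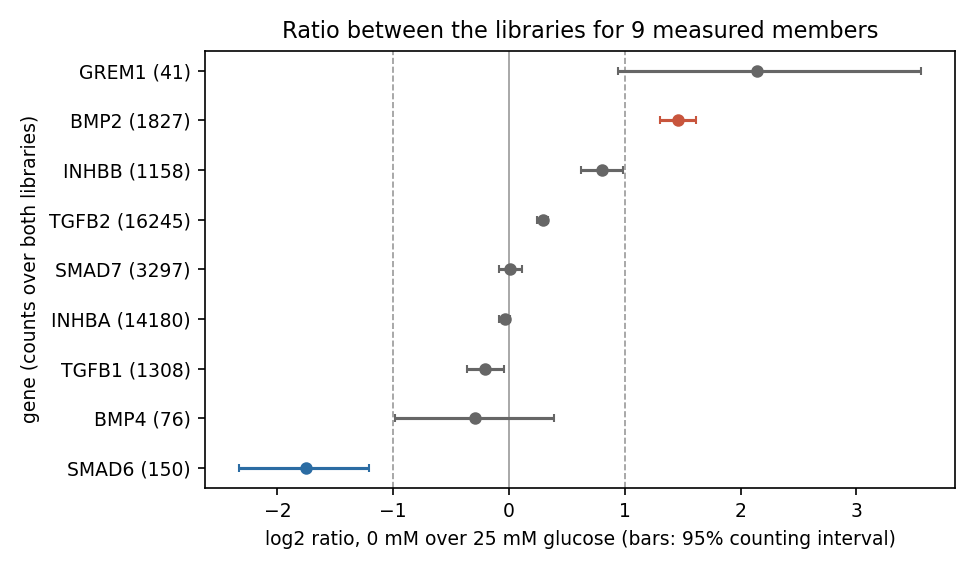
Log2 ratio, 0 mM over 25 mM glucose, for the 9 measured genes, with exact 95% counting intervals, ordered by ratio, and with the counts over both libraries in brackets. Dashed lines mark 2-fold, and the intervals of BMP2 (red) and SMAD6 (blue) lie wholly beyond them, while that of GREM1, from 41 counts, begins at 0.94.

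Of the 9 measured members, 1 was higher and 1 was lower. Among all 14240 measured genes, 3.75% were higher and 6.2% were lower, and 9.95% passed in either direction. Counts this small cannot be set apart from that background. The median log2 ratio of the 9 was 0.01, against 0.015 over all measured genes. These members passed the count minimum, and FST did not.

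Ratios between related genes within a library do not depend on the scaling of the libraries. Per kilobase, TGFB2 stood at 3.82 times TGFB1 with glucose and 5.38 times without, a 1.41-fold difference (95% Wald counting interval 1.26 to 1.58). INHBA stood at 25.4 times INHBB with glucose and 14.2 times without, and their counting intervals (23.0 to 28.2 and 13.2 to 15.3) did not overlap. The activin beta subunit transcripts were thus mostly INHBA in both libraries, and less so without glucose.

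The BMP and SMAD pairs had larger shifts. BMP2 stood at 7.44 times BMP4 with glucose and 25.1 times without, a 3.37-fold difference (interval 2.12 to 5.35). SMAD7 stood at 12.7 times SMAD6 with glucose and 43.0 times without, a 3.40-fold difference (interval 2.33 to 4.95). BMP2, a BMP ligand, and SMAD6, an inhibitor of the BMP branch, moved from a ratio of 4.01 to one of 37.2, or 9.26-fold (interval 6.30 to 13.6). This last pair was chosen after its values were seen.

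**Figure D3:**
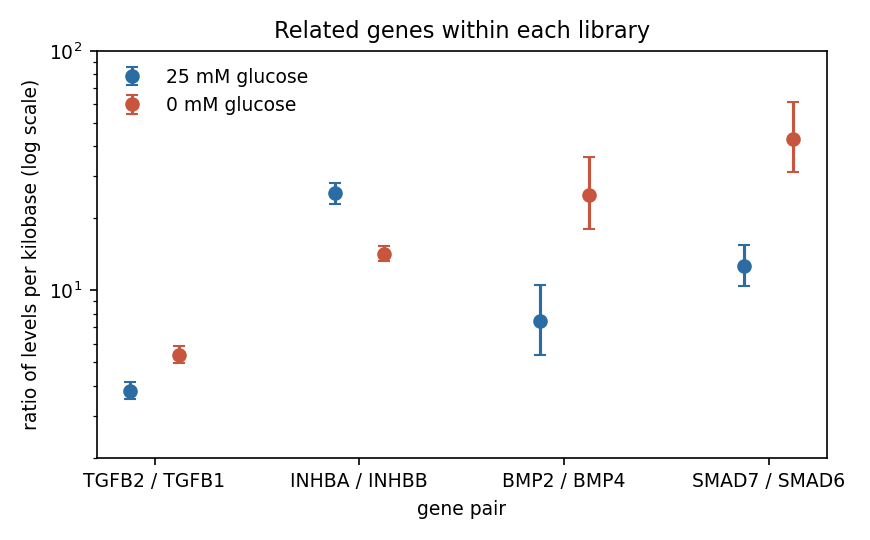
Ratio of the levels per kilobase of 4 pairs of related genes within each library (log scale), with 95% counting intervals. Without glucose the ratio is higher for TGFB2 to TGFB1, BMP2 to BMP4 and SMAD7 to SMAD6 and lower for INHBA to INHBB, which goes from 25.4 to 14.2.

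The 6 member ligands made up most of the ligand transcripts of the superfamily. Of the summed level per kilobase of 33 superfamily ligand genes, INHBA took 58.5% with glucose and 49.6% without, and TGFB2 21.6% and 23.0%. BMP2 took 2.68% and 6.4%, TGFB1 5.67% and 4.27%, INHBB 2.30% and 3.49%, and BMP4 0.360% and 0.255%. The 6 together came to 91.1% and 87.0%. GDF15, a distant member induced by stress, took 2.80% with glucose and 10.7% without, and with it left out the 6 members came to 93.7% and 97.4%.

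The rest of the pathway was taken from lists of 136 other genes by role, of which 134 were matched and 97 measured. Of these 97, 9 were higher and 9 lower without glucose (9.28% each), with a median log2 ratio of -0.29. The shares of all measured genes were 3.75% and 6.2%, and they are the background for each role below.

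Among 14 other TGF-beta, activin and GDF ligands, 6 were measured, and their median log2 ratio was -0.52. GDF15 was higher (6.46 to 28.4 CPM). GDF11, a ligand close to myostatin, was lower, with 841 counts with glucose and 178 without (30.2 and 5.79 CPM, log2 ratio -2.38). INHBE, an activin beta subunit gene best known from liver, had 42 and 93 counts (log2 ratio 1.004, interval 0.46 to 1.57), and the oocyte factor GDF9 18 and 7 counts, and neither passed. Of 13 other BMP and GDF ligands, 4 were measured and 0 passed. They were BMP8B (83 and 40 counts), whose close copy BMP8A can share its reads, BMP7 (53 and 36), GDF6 (13 and 8) and BMP6 (7 and 13).

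Genes that store or release latent TGF-beta or process ligands had ratios below 0 in all 13 of 13 measured members, under each of the scalings and the length correction tried. The counting interval of LTBP1 (74 and 62 counts, log2 ratio -0.40, interval -0.91 to 0.11) included 0, so its direction was not determined. Of all measured genes, 49.1% had a ratio below 0. By the rule 3 of the 13 were lower and 0 higher, where 6.2% and 3.75% of all measured genes were, with a median log2 ratio of -0.73, or -0.53 with the length correction. ITGB6, the beta 6 integrin subunit of a receptor that activates latent TGF-beta, had 772 counts (27.7 CPM) with glucose and 61 (1.98 CPM) without, a log2 ratio of -3.80 (interval -4.21 to -3.43). LTBP3, a latent TGF-beta binding protein, had 38.0 and 13.9 CPM (-1.45), and TLL2, a tolloid-like protease, 21.8 and 6.44 CPM (-1.76). LTBP2 had 20.2 and 10.7 CPM (-0.91) and did not pass.

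Of 18 other extracellular antagonists, 9 were measured, 2 were higher and 0 were lower, where 3.75% and 6.2% of all measured genes were. The median log2 ratio of these antagonists was 0.27, and without the count minimum it was -0.14. NOG, which encodes noggin, a BMP antagonist, had 91 counts (3.27 CPM) with glucose and 851 (27.7 CPM) without, 8.47-fold higher (interval 6.82 to 10.6). FSTL3, a follistatin-like protein that binds activins, had 1291 counts (46.4 CPM) and 3520 (114 CPM), 2.47-fold higher (interval 2.32 to 2.64). Per kilobase, NOG stood at 14.6 CPM and FSTL3 at 45.7 CPM without glucose, above GREM1 at 0.267. FSTL1 (129), CRIM1 (92.0) and CHRDL1 (54.4) stood higher still. Their log2 ratios were -0.62, 0.96 (interval 0.92 to 0.999) and -0.23, and none of them passed the rule. BMPER, a BMP-binding protein, had 54 and 155 counts (log2 ratio 1.38, interval 0.92 to 1.85), just short of the rule, and TWSG1, twisted gastrulation, 175 and 88.0 CPM (-0.99).

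No receptor passed the rule. The 7 measured type I receptors had a median log2 ratio of -0.38 and the 4 measured type II receptors one of -0.42. TGFBR2, the type II receptor of TGF-beta, had 6315 counts (227 CPM) with glucose and 3475 (113 CPM) without, a log2 ratio of -1.004 whose interval (-1.07 to -0.94) spanned the bound. BMPR2, the type II receptor of BMPs, had 236 and 179 CPM (-0.40), ACVR2B 44.4 and 32.5 CPM (-0.45), and the activin receptor ACVR2A 6.21 and 10.9 CPM (0.81). Of type I receptors, ACVR1B, which serves activins, had a log2 ratio of -0.55 and ACVR1 one of 0.40, and ACVRL1 (17 and 5 counts) and ACVR1C (16 and 13) were near the count minimum. Of 4 measured coreceptors 0 passed, and TGFBR3, the coreceptor for TGF-beta 2, had 9.41 and 5.69 CPM (-0.72) and the decoy receptor BAMBI 9.91 and 14.8 CPM (0.58). ENG had 21 and 12 counts, and RGMB, a BMP coreceptor, 18.1 and 18.5 CPM.

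Of the 6 receptor-regulated and common SMADs, SMAD3 was lower and the other 5 did not pass. SMAD3 had 7782 counts (279 CPM) with glucose and 2078 (67.6 CPM) without, a log2 ratio of -2.05 (interval -2.12 to -1.98). SMAD2, its partner downstream of the same receptors, had 156 and 215 CPM (0.46). In the BMP branch, SMAD5 had 162 and 134 CPM (-0.28) and SMAD9 74 and 37 counts (-1.14, interval -1.75 to -0.56). Of 14 intracellular regulators 1 was lower, C18orf1 (LDLRAD4), an inhibitor of TGF-beta signalling, with 59 and 11 counts (-2.57). PMEPA1, a related inhibitor, had 364 and 215 CPM (-0.76), the corepressor TGIF1 74.3 and 123 CPM (0.72), and ZFYVE9, which presents SMADs to the receptor, 79.7 and 129 CPM (0.69).

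Genes known as targets of the pathway were mixed. Of 25 measured TGF-beta target genes 5 were higher, ANGPTL4, CTGF, CDKN1A, CYR61 and IL11, with log2 ratios of 2.21, 1.97, 1.83, 1.63 and 1.35, and 1 was lower, JUNB, at 25.7 and 8.52 CPM (-1.59). Thus 20% of the 25 were higher and 4% lower, against 3.75% and 6.2% of all measured genes. The median of the 25 was -0.13. Each of the genes named here also answers to other signals. Among BMP target genes, 9 were measured. Of these, 1 passed as higher and 2 as lower, or 11.1% and 22.2%, against the same 3.75% and 6.2%. The median of the BMP target genes was 0.58, and without the count minimum it was -0.56. ID1, an inhibitor of differentiation induced by BMPs, had 1031 counts (37.0 CPM) with glucose and 199 (6.47 CPM) without (-2.52, interval -2.74 to -2.30). ATOH8 had 194 and 42 counts (-2.35), and HEY1, a repressor that Notch also induces, 42 and 167 counts (1.85). DLX2 had 24 and 70 counts (1.40) and did not pass. SMAD6 is itself a BMP target gene, and ID3, named after its values were seen, had 431 and 210 counts (-1.18, interval -1.43 to -0.94), just short of the rule. ID2, of the same family as ID1 and ID3, went the other way, with 220 and 408 counts (0.75, interval 0.51 to 0.99). MSX1 and BAMBI had log2 ratios of 0.70 and 0.58, and RUNX2 one of -0.66. Of the 9 measured BMP target genes, 5 had ratios above 0 and 4 below.

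**Figure D4:**
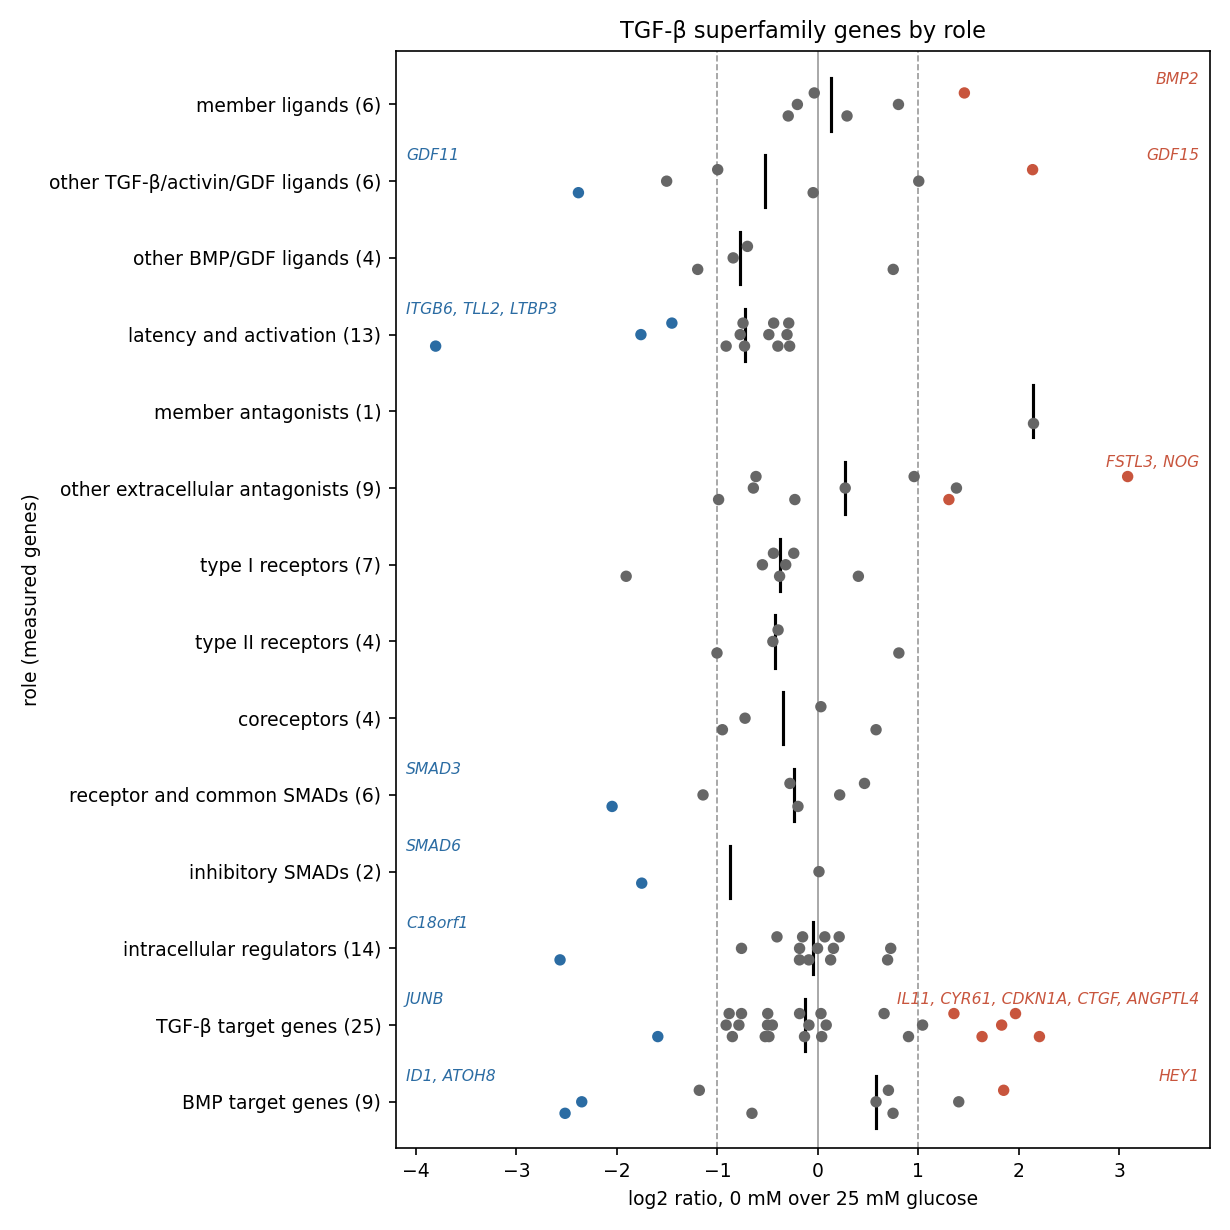
Log2 ratio, 0 mM over 25 mM glucose, for each measured gene of the superfamily, by role, with the number of genes in brackets. Black bars are medians, dashed lines mark 2-fold, and colored genes passed the rule of size (red higher, blue lower; named in order from left to right), with all 13 genes of latency and activation to the left of 0.

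With 2 libraries each gene has 1 ratio, so likeness in pattern is only nearness in that ratio. Over the 10056 genes that reached 10 CPM in one library or both, the 3 nearest to GREM1 (log2 ratio 2.14) were GDF15, TRIB3 and EFEMP1, and 21 genes lay within 0.1. The counting interval of GREM1, 0.94 to 3.56, is far wider than these distances, so its nearest genes cannot be told from many others. The 3 nearest to SMAD6 (-1.75) were PCNA, CIT and C14orf4, with 75 genes within 0.1, and its interval, -2.33 to -1.21, is likewise wider.

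All 9 renal markers were measured, with PAX8 at 244 and 232 CPM, and 3 of the 9 were lower without glucose and 1 was higher. Of all measured genes, 6.2% were lower and 3.75% higher. Fibroblast markers summed to 22.1 CPM over 8 genes with glucose and 11.4 without, and all 7 measured had ratios below 0. A ratio below 0 was found in 49.1% of all measured genes. The counting intervals of COL3A1, PDGFRA, PDGFRB and THY1 included 0, so the direction of these genes was not determined. Of the 7, LUM was lower by the rule, with 295 and 100 counts (log2 ratio -1.70), and it made up 10.6 and 3.25 CPM of the sums. DCN, which was not measured, had 3 and 5 counts. Endothelial markers summed to 2.33 and 0.683 CPM over 5 genes, and erythroid ones to 0.0359 and 0.0976 CPM over 4, with HBA1 at 0 in both libraries. Leukocyte markers summed to 11.8 and 26.2 CPM over 6 genes, nearly all from CD68, with PTPRC at 9 and 4 counts. The part of these marker differences in the results above was not tested. Gene length moved with the ratio: medians over 10 classes of measured genes ran from 0.31 in the shortest to -0.21 in the longest.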

How the data were processed

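Total RNA of 786-O cells, extracted with Trizol per the labels' protocols, was sequenced as 1 library with 25 mM and 1 with 0 mM glucose, grouped by title. The deposited counts are raw whole numbers per gene model, and the deposited RPKM values are reads per kilobase and per 1000000 reads, per the file headers. Exon numbers and exons with more than 10 reads are the authors' own, per the file headers. Coordinates follow hg19, the build that the submitters' processing notes name. Aligner, counter, strand use and library preparation: not given in the sources used here. Starts were given 1 base above the deposited ones, since length equalled end minus start in all 3553 models of 1 exon.

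Of 24364 gene models, 528 repeating another symbol's place and counts were removed, and the rest were added up per symbol. TMM factors (1.02 with glucose, 0.981 without) came from edgeR 4.0.16 in R 4.3.3 over genes with at least 20 counts, and intervals from Python 3.11.15 and scipy 1.17.1. Ratios carry exact Clopper-Pearson intervals, levels exact Poisson ones, and ratios between genes across libraries Wald ones. The log2 half-width was about 1.42 at 20 counts, 0.60 at 100 and 0.13 at 2000. No test or p-value was possible with 1 library per group. The rule of size was an interval wholly beyond 2-fold. Named were all members, up to 4 genes per list with the largest absolute ratio, others that spell out small counts, and the 3 genes nearest in ratio. The members and lists were chosen with earlier results of these data known. Promoter windows are RefSeq's for GRCh38.p14 and were cut to the bases before the start.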

Additional observations from a re-analysis of the deposited data

How the results depend on the processing

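Leaving out a replicate could not be tried. No paired analysis was possible because neither condition had a further library. BMP2 stayed higher and SMAD6 lower under total-count, upper-quartile and median-of-ratios scaling, with rows as deposited, without small RNA genes and with the length correction, where log2 ratios ran from 1.402 to 1.496 and from -1.81 to -1.72. With total-count scaling the log2 ratio was 0.23 for TGFB2 and -0.092 for INHBA, and with the length correction 0.45 and -0.088. The length correction brought the members called higher to 2, by adding GREM1. With 1 CPM added, the log2 ratio was 0.75 for GREM1 and -1.199 for SMAD6. With a 1.5-fold rule, which asks for less, 3 of the 9 measured members were higher (BMP2, INHBB and GREM1) and 1 was lower (SMAD6). By that rule 15 of the 97 other measured pathway genes were higher and 21 lower. Of all 14240 measured genes, 1451 were higher and 1800 lower by it. Without the count minimum, the medians of other extracellular antagonists, BMP target genes and coreceptors changed sign, from 0.27 to -0.14, from 0.58 to -0.56 and from -0.35 to 0.58. The deposited RPKM with glucose was 42.9 for TGFB2 and 116.1 for INHBA. Depth limits BMP4, GREM1, FST and SMAD6, with at most 150 counts each over both libraries.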
